A study of Mus musculus with 3 samples.

Results

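The MHC class II genes measured here are 10 genes of the class II antigen presentation machinery, taken by name from 22238 genes listed in all 3 libraries. H2-Aa, H2-Ab1 and H2-Eb1 encode chains of the classical class II molecules and Cd74 encodes the invariant chain. H2-DMa, H2-DMb1 and H2-DMb2 encode chains of H2-M, H2-Oa and H2-Ob encode the chains of H2-O, and Ciita encodes the class II transactivator. All 10 genes were listed in every library.

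RNA-Seq libraries, 1 each, came from monocytes of the bone marrow (BM monocytes) and, from the spinal cord, from monocytes (SC monocytes) and monocyte-derived antigen-presenting cells (APCs). All mice were female C57BL/6J labelled wild type (WT), 10 to 12 weeks old, and all had EAE (experimental autoimmune encephalomyelitis, a model of multiple sclerosis), so no population came from unimmunized mice. They received MOG peptide in complete Freund's adjuvant and 250 ng of pertussis toxin at 2 and again at 24 hours, and cells were sorted at days 14 to 15. BM monocytes, pooled from 13 mice in 2 experiments, were sorted as CD45+ CD11b+ Ly6Chi and negative for Ly6G and CD11c. SC monocytes were sorted as CD45+ CD11b+ CD64+ Ly6Chi Ly6G-, and the APCs with the same markers but low or no Ly6C. Both spinal cord populations were sorted from the same spinal cords, of 18 mice in total, and pooled over 3 experiments. CD11c was used to remove cells from the bone marrow sort alone. For the APCs, the labels give the bone marrow as the source in one field and the spinal cord in the title and the tissue field. The last 2 were followed here.

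With 1 library per population there is no replicate check, no test of the populations and no p-value. Estimated reads summed to between 27283795 and 33280643 per library. The APC values covered 22242 genes and those of each monocyte population 54432, so a different set of transcripts was used for the APCs, and its effect cannot be told apart from that of the population. In APCs alone, the mean transcript lengths of H2-DMb1 (1404 bases) and H2-Oa (1088) equal those of their only coding transcripts. Transcripts with a retained intron may therefore be absent from the APC set. Transcript lengths may not be comparable between the APCs and the monocytes. TPM, a level corrected for transcript length and expressed as a share of all transcripts, was rescaled to the same sum over the common genes. Ly6c2, a gene of the Ly6C antigen used in the sort, had 5205 TPM in BM and 3602 TPM in SC monocytes and 1067 TPM in APCs. A log2 fold change is a difference between 2 libraries, taken from reads scaled by size factors and given with the bounds of its 98% interval. Genes were called if the whole interval exceeded a 2-fold change and they were active, with more than 3 TPM in at least 1 library of the pair. Intervals on TPM and on ratios of TPM are at 95%. They cover counting error only, and PCR copies of a molecule are not independent. In sorted bulk cells, a larger share of class II positive cells and more class II RNA per cell cannot be told apart.

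Class II molecules on the surface of antigen-presenting cells show peptides from ingested proteins to CD4 T cells. The alpha and beta chains assemble on the invariant chain, which proteases then trim until a small piece, CLIP, is left in the groove. H2-M exchanges CLIP for peptide and H2-O restrains H2-M. CIITA does not bind DNA itself but is recruited to the promoters of class II, H2-M, H2-O and invariant chain genes by a complex of RFX, CREB and NF-Y proteins on the X and Y boxes. Mice of the C57BL/6 background have no functional H2-Ea, so the product of H2-Eb1 lacks its partner chain and their class II molecule is I-A, made of H2-Aa and H2-Ab1.

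From left to right on chromosome 17, H2-Oa starts at 34092340, H2-DMa at 34119541, H2-DMb2 at 34143307, H2-DMb1 at 34153072, H2-Ob at 34238903, H2-Ab1 at 34257689, H2-Aa at 34282744 and H2-Eb1 at 34305867, and ends at 34316674 (GRCm38). H2-Aa is on the minus strand and the others are on the plus strand. Ciita lies on chromosome 16 (10480059 to 10528418, plus strand), and Cd74 is on neither.

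Promoter stretches that hold the Y box letters are shown for 5 genes because the 10 genes share a transactivator that works through these boxes. RefSeq promoter sequences (GRCm38.p6, 250 bases before to 50 after each start) matched 7 of the 10 genes in 8 windows. H2-Ab1, Cd74 and Ciita had no entry. Each stretch below has 57 bases on the transcribed strand, lies upstream of the RefSeq start, and ends with the Y box letters TGATTGG in capitals. These letters hold ATTGG, the reverse complement of the CCAAT core that NF-Y binds. The X box letters AGNAAC are in capitals where they occur. The stretch of H2-DMb1, which holds both sets of letters, lies in an annotated exon and is not printed. The positions are chr17:34092284-34092340 (+) for H2-Oa, chr17:34145107-34145163 (+) for H2-DMb2, chr17:34238796-34238852 (+) for H2-Ob, chr17:34287867-34287923 (-) for H2-Aa and chr17:34305756-34305812 (+) for H2-Eb1. The stretch of H2-DMb2 lies inside the longer gene of GENCODE M21, in an intron, and the others lie outside the gene but for the last base of that of H2-Oa.
H2-Oa: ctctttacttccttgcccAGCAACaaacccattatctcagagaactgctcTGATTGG
H2-Ob: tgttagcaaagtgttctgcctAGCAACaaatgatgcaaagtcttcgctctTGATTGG
H2-Eb1: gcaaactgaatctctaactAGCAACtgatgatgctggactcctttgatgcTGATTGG
H2-DMb2: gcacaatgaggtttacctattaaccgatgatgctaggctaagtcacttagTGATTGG
H2-Aa: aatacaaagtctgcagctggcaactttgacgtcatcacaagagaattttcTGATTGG

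The Y box letters were found in 6 of the 8 member windows, against 7.82% of 32851 promoter windows of the same length with both strands searched. The X box letters alone are common, with 48.1% of all windows, and were in 5 of the 8. X box letters followed by Y box letters at a distance of 20 to 40 bases were in 4 of the 8 member windows and in 0.21% of all windows. These were H2-Oa and H2-DMb1, with 26 bases between the boxes, H2-Eb1 with 25 and H2-Ob with 23. H2-Aa and H2-DMb2 had the Y box letters without AGNAAC before them, and the 2 windows of H2-DMa held no Y box letters. At the same distance of 26 bases, H2-Aa had ggcaac and H2-DMb2 attaac, which share the last letters AAC. A miss of AGNAAC therefore does not show that an X box is absent. The share of all windows with such looser letters was not counted. The motif letters were chosen after the sequences were seen, and a match is a description of letters, not a binding site.

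**Figure D1:**
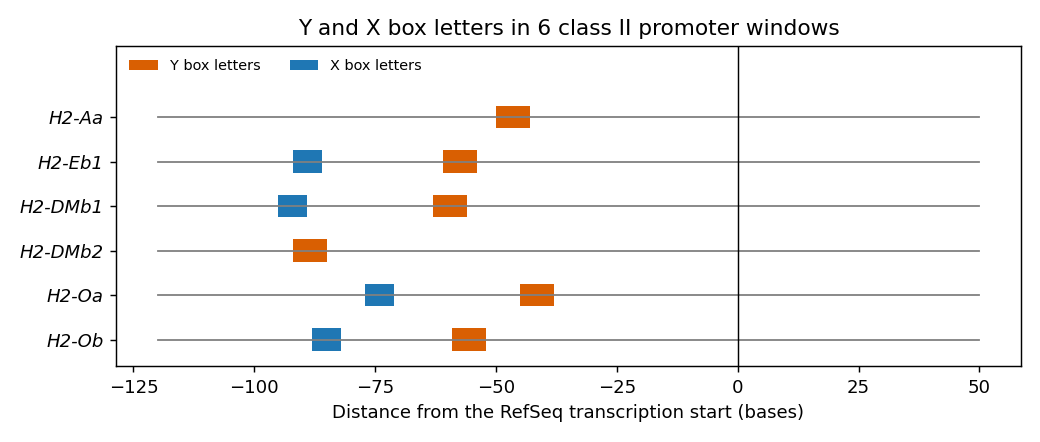
Positions of the Y box letters (orange) and the X box letters (blue) in 6 RefSeq promoter windows, as distance in bases from the transcription start (vertical line at 0). The Y box letters start at -45 in H2-Oa, -50 in H2-Aa, -59 in H2-Ob, -61 in H2-Eb1, -63 in H2-DMb1 and -92 in H2-DMb2. The exact X box letters AGNAAC precede them in 4 of the 6.

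Of the 10 class II genes, 9 were called higher in SC than in BM monocytes and 7 higher in APCs than in SC monocytes. Their summed level was 424 TPM in BM monocytes, 10687 TPM in SC monocytes and 25335 TPM in APCs, or 0.0424%, 1.07% and 2.53% of the transcripts of the common genes. Between BM and SC monocytes, 9 members were active and all 9 were called higher, where 13.8% of 10072 active genes were called higher and 10.7% lower. H2-Oa and Ciita were active through SC monocytes alone, so they could be called in this direction alone. The log2 fold changes of the 10 members ranged from 1.49 to 8.86. The median over the 9 was 5.10, beside -0.15 over all active genes. From SC monocytes to APCs all 10 were active, 7 were called higher and 0 lower, where 1.93% of 9734 active genes were called higher and 1.7% lower. The median of this difference was 1.34, beside -0.04 over all active genes. H2-Ob was active in this step through APCs alone. The members not called were H2-DMa, H2-DMb1 and Ciita. When libraries were assumed to vary with a coefficient of variation of 0.2, the 3 called members were H2-DMb2, H2-Oa and H2-Ob, and with 0.4 the count was 0. The 5 microglial markers were also called higher in both steps and the 5 T cell markers in the first, with the levels given further on, and their part in the class II differences was not tested. In BM monocytes 1 of the 5 microglial markers and 0 of the 5 T cell markers were over 3 TPM. The rest were active in the first step through SC monocytes alone and could not be called lower.

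**Figure D2:**
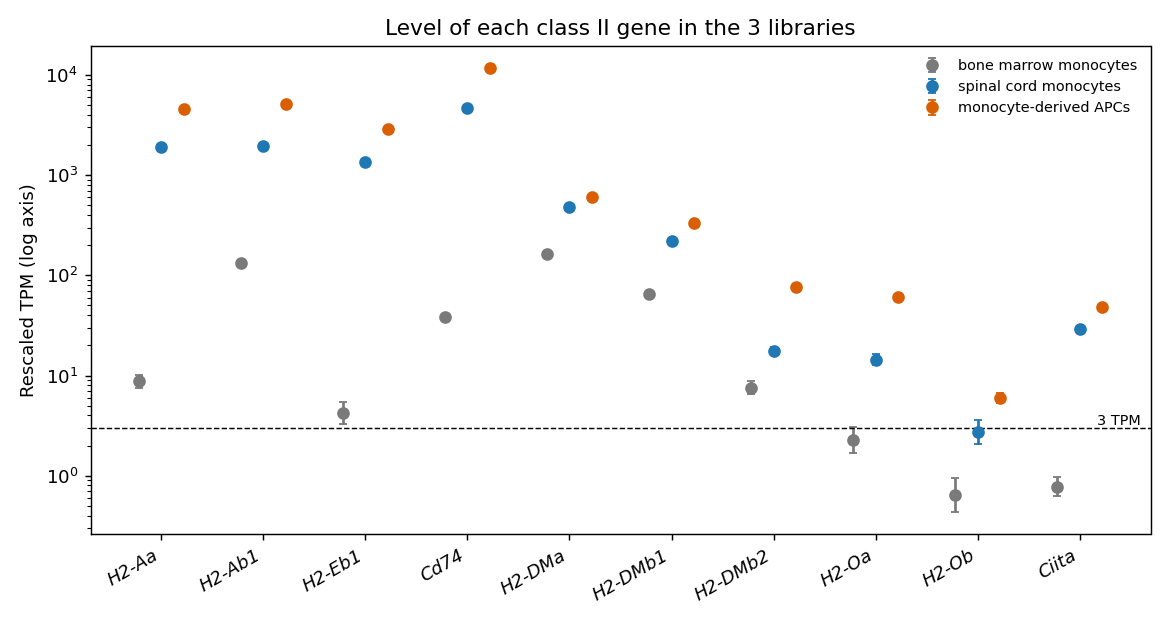
Level of each member in rescaled TPM (log axis) in BM monocytes (grey), SC monocytes (blue) and monocyte-derived APCs (orange), 1 library each, with 95% counting intervals as bars and a dashed line at 3 TPM. In every gene the order is BM monocytes, SC monocytes, APCs, from 0.645 TPM for H2-Ob to 11642 TPM for Cd74.

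The classical chains H2-Aa and H2-Eb1 were low in BM monocytes, H2-Ab1 less so, and all 3 were among the most abundant genes of both spinal cord populations. H2-Aa (ENSMUSG00000036594.15), the I-A alpha chain, had 8.81 TPM in BM monocytes (172 reads, 95% interval 7.59 to 10.2), 1917 TPM in SC monocytes (31988 reads) and 4520.1 TPM in APCs (82725 reads). It ranked 7726 among the 22238 genes by TPM in the first library, 77 in the second and 23 in the third. Its log2 fold change was 8.02 (98% bounds 7.77 to 8.28) between the monocytes, a 259-fold difference, and 1.21 (1.19 to 1.24) from SC monocytes to APCs.

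H2-Eb1 (ENSMUSG00000060586.11), the I-E beta chain, was the lowest of the classical chains in each population. It had 4.23 TPM in BM monocytes (62 reads, 95% interval 3.30 to 5.43), 1349 TPM in SC monocytes and 2881 TPM in APCs. Between the monocytes its log2 fold change was 8.86 (98% bounds 8.46 to 9.31), the largest of the members, or 466-fold. The step to APCs was 1.35 (1.32 to 1.38), or 1.04 after dividing reads by effective length, the length over which a transcript can give reads, which was 800.0 bases in SC monocytes and 990.0 in APCs.

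H2-Ab1 (ENSMUSG00000073421.6), the I-A beta chain, stood apart from its partner in the bone marrow. Its level was 133 TPM in BM monocytes (1329 reads), 1932 TPM in SC monocytes (32698 reads) and 5171 TPM in APCs (96478 reads). The log2 fold change was 5.10 (98% bounds 5.01 to 5.20) and then 1.40 (1.38 to 1.43). The ratio of H2-Ab1 to H2-Aa in TPM was 15.0 (95% interval 12.8 to 17.6) in BM monocytes, 1.01 (0.993 to 1.02) in SC monocytes and 1.14 (1.13 to 1.15) in APCs. The transcripts to which the reads of H2-Ab1 were assigned also differed. Their mean length was 723 bases in BM monocytes, 1149 in SC monocytes and 1144 in APCs, where the full coding transcript in GENCODE M21 has 1212 bases and transcripts with a retained intron have between 515 and 1169. The latter may not have been in the set used for APCs. The effective length, by which TPM is divided, was 469, 873 and 895 bases. The ratio of 15.0 in BM monocytes rests in part on these 469 bases. H2-Aa had 172 reads there over an effective length of 913 bases. The counting interval of the ratio does not cover this. Divided by effective length, the difference between the monocytes was 4.21.

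Cd74 (ENSMUSG00000024610.15), the invariant chain that holds the new class II pair and blocks its groove, was the most abundant member in both spinal cord populations. It had 38.2 TPM (811 reads) in BM monocytes, 4722 TPM in SC monocytes and 11642 TPM in APCs, ranking 3638, 17 and 8 among all genes. The log2 fold changes were 7.24 (98% bounds 7.13 to 7.36) and 1.33 (1.31 to 1.34). Relative to the sum of H2-Aa, H2-Ab1 and H2-Eb1 in TPM, Cd74 stood at 0.263 (95% interval 0.241 to 0.286) in BM monocytes, 0.909 (0.900 to 0.917) in SC monocytes and 0.926 (0.921 to 0.931) in APCs. The ratio in the bone marrow library was below the other two by more than their counting intervals. In BM monocytes H2-Ab1 had 133 TPM of that sum, beside 8.81 for H2-Aa and 4.23 for H2-Eb1. The ratio there therefore rested on H2-Ab1 and on its short effective length of 469 bases in that library. Between the monocytes the log2 fold change of Cd74 was above that of H2-Ab1 (5.10) but below those of H2-Aa (8.02) and H2-Eb1 (8.86). Relative to H2-Aa or H2-Eb1 alone, Cd74 was therefore higher in BM than in SC monocytes.

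**Figure D3:**
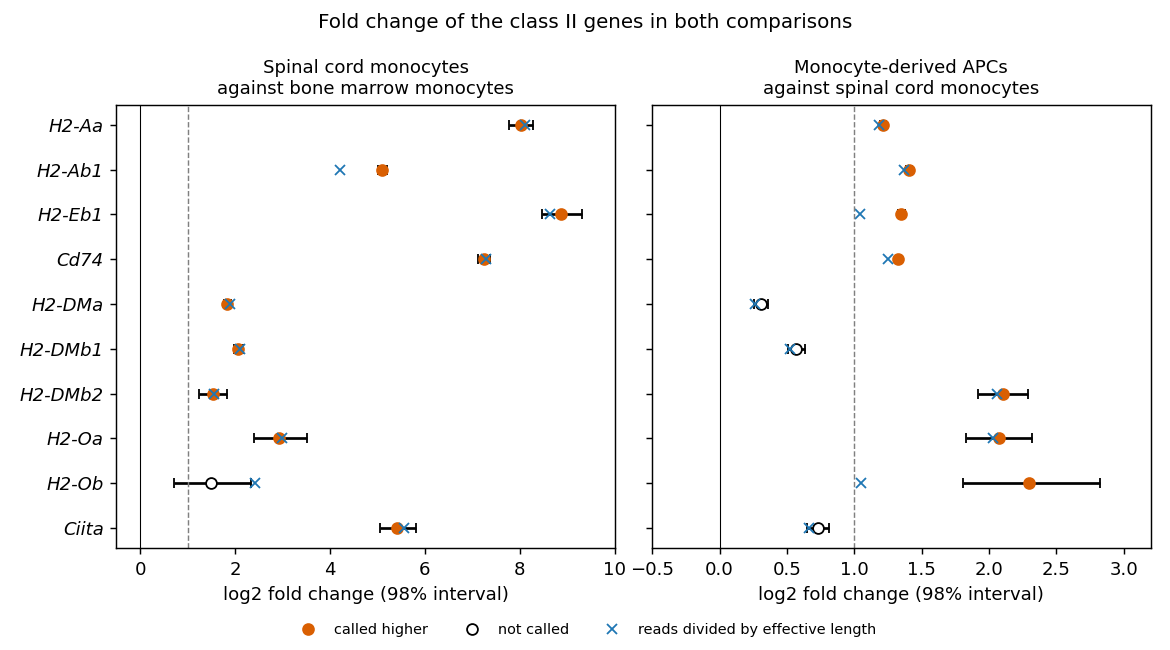
Log2 fold change of each member (points, with 98% intervals) for SC against BM monocytes (left) and monocyte-derived APCs against SC monocytes (right), filled where called, with crosses for reads divided by effective length and a dashed line at a 2-fold change. On the left the classical chains, Cd74 and Ciita lie between 5.10 and 8.86 and the H2-M genes between 1.53 and 2.07, and on the right H2-DMb2, H2-Oa and H2-Ob lie above 2.

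H2-DMa and H2-DMb1 were well above 3 TPM in BM monocytes, and between the monocytes all 3 H2-M genes had smaller differences than the classical chains. H2-DMa (ENSMUSG00000037649.10), the single alpha chain gene of H2-M, was the highest member of all in BM monocytes, with 164 TPM (3065 reads, 95% interval 158 to 169). It reached 482 TPM in SC monocytes (7845 reads) and 599.9 TPM in APCs (10821 reads). It was called higher between the monocytes, with a log2 fold change of 1.84 (98% bounds 1.77 to 1.91). From there to APCs the log2 fold change was 0.31 (0.26 to 0.36), the smallest of the members, and was not called. H2-DMa overlaps Brd2, which had 8823 reads in BM monocytes, 14521 in SC monocytes and 16196 in APCs, and shared 0 words of 31 bases with it or any other gene.

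H2-DMb1 (ENSMUSG00000079547.4) and H2-DMb2 (ENSMUSG00000037548.15) are neighbouring copies of the beta chain gene. H2-DMb1 had 65.4 TPM in BM monocytes (1597 reads), 222 TPM in SC monocytes (4787 reads) and 329 TPM in APCs (7928 reads). The difference between the monocytes was 2.07 (98% bounds 1.97 to 2.16) on the log2 scale. In APCs it was 0.57 (0.51 to 0.63) above SC monocytes and not called.

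H2-DMb2 had 7.57 TPM in BM monocytes (187 reads, 95% interval 6.56 to 8.74), 17.6 TPM in SC monocytes (388 reads, 15.9 to 19.4) and 76.0 TPM in APCs (1861 reads, 72.7 to 79.6). Unlike its copy, it had a larger difference in the second step, 2.10 (98% bounds 1.92 to 2.29), than in the first, 1.53 (1.24 to 1.83). The ratio of H2-DMb2 to H2-DMb1 in TPM was 11.6% (95% interval 9.95% to 13.5%) in BM monocytes, 7.92% (7.14% to 8.78%) in SC monocytes and 23.1% (21.9% to 24.3%) in APCs. In GENCODE M21, 36.6% of the 31-base words of H2-DMb2 also occur in other genes, mostly H2-DMb1, and 37.6% of those of H2-DMb1 in H2-DMb2, so the estimated reads of the copies are uncertain. Summed, an alternative added after seeing the data, the copies had log2 fold changes of 2.02 and 0.76 (98% bounds 0.71 to 0.82), and the second was not called. Between the monocytes, H2-DMb2 and H2-DMa were not called with an assumed coefficient of variation of 0.2, nor H2-DMb2 over all genes of the monocyte libraries (1.29, 0.99 to 1.59).

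Relative to the RNA of the classical chain genes, the RNA of the H2-M genes was highest in BM monocytes. The TPM of the 3 H2-M genes was 1.62 times that of H2-Aa, H2-Ab1 and H2-Eb1 in BM monocytes (95% interval 1.53 to 1.72), 0.139 in SC monocytes (0.136 to 0.141) and 0.0800 in APCs (0.0788 to 0.0811). Within H2-M, beta chain TPM was 0.446 of H2-DMa in BM monocytes, 0.497 in SC monocytes and 0.676 (0.658 to 0.695) in APCs.

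The H2-O genes had the lowest levels of the chain genes, and both were called higher in APCs than in SC monocytes. H2-Oa (ENSMUSG00000024334.9), the alpha chain, had 2.27 TPM in BM monocytes (41 reads, 95% interval 1.68 to 3.09), 14.4 TPM in SC monocytes (227 reads, 12.6 to 16.4) and 61.1 TPM in APCs (1067 reads, 57.5 to 64.8). It was called higher in both steps, with log2 fold changes of 2.93 (98% bounds 2.39 to 3.52) and 2.07 (1.83 to 2.32). The gene overlaps the antisense gene BC051537, with which 24.9% of its 31-base words are shared and to which 2 and 3 reads were assigned in the BM and SC monocyte libraries. Whether strand was used in the counting is not given in the sources used here.

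H2-Ob (ENSMUSG00000041538.16), the beta chain, had 0.645 TPM in BM monocytes (25 reads, 95% interval 0.437 to 0.953), 2.75 TPM in SC monocytes (51 reads, 2.09 to 3.61) and 5.97 TPM in APCs (282 reads, 5.31 to 6.71). It was under 3 TPM in both monocyte libraries and so not called between them, where the log2 fold change was 1.49 (98% bounds 0.70 to 2.33, which also reached below a 2-fold change). In APCs it was called higher on reads, by 2.30 (1.81 to 2.82). Divided by effective length this was 1.05 (0.57 to 1.58) and not called. The effective length was 1813 bases in BM monocytes, 958 in SC monocytes and 2266 in APCs.

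The alpha chain of H2-O exceeded its beta chain throughout. H2-Ob stood at 0.284 (95% interval 0.173 to 0.465) of H2-Oa in TPM in BM monocytes, 0.191 (0.141 to 0.259) in SC monocytes and 0.0978 (0.0858 to 0.111) in APCs. The lower ratio in APCs than in SC monocytes rests on the effective length of H2-Ob, since on reads H2-Ob differed more in that step (2.30) than H2-Oa (2.07). Against H2-M, whose action H2-O restrains, the summed H2-O genes were 1.23% (0.970% to 1.57%) in BM monocytes, 2.37% (2.11% to 2.67%) in SC monocytes and 6.67% (6.31% to 7.04%) in APCs. These 3 intervals did not overlap.

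Ciita (ENSMUSG00000022504.10), the transactivator of the whole set, was under 1 TPM in BM monocytes and differed more between the monocytes than from SC monocytes to APCs. It had 0.779 TPM in BM monocytes (80 reads, 95% interval 0.626 to 0.969), 29.3 TPM in SC monocytes (2460 reads, 28.1 to 30.4) and 48.1 TPM in APCs (4555 reads, 46.7 to 49.5). Between the monocytes it was called higher, with a log2 fold change of 5.41 (98% bounds 5.05 to 5.81), or 42.6-fold. From SC monocytes to APCs it was 0.73 (0.65 to 0.82), or 1.66-fold, and not called. In the same step H2-Aa was 2.32-fold, H2-Ab1 2.65-fold, H2-Eb1 2.55-fold and Cd74 2.51-fold higher. The ratio of Ciita to H2-Aa in TPM was 8.84% (95% interval 6.79% to 11.5%) in BM monocytes, 1.53% (1.46% to 1.59%) in SC monocytes and 1.06% (1.03% to 1.10%) in APCs. Ciita overlaps Dexi, a gene with 159 to 207 reads per library.

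**Figure D4:**
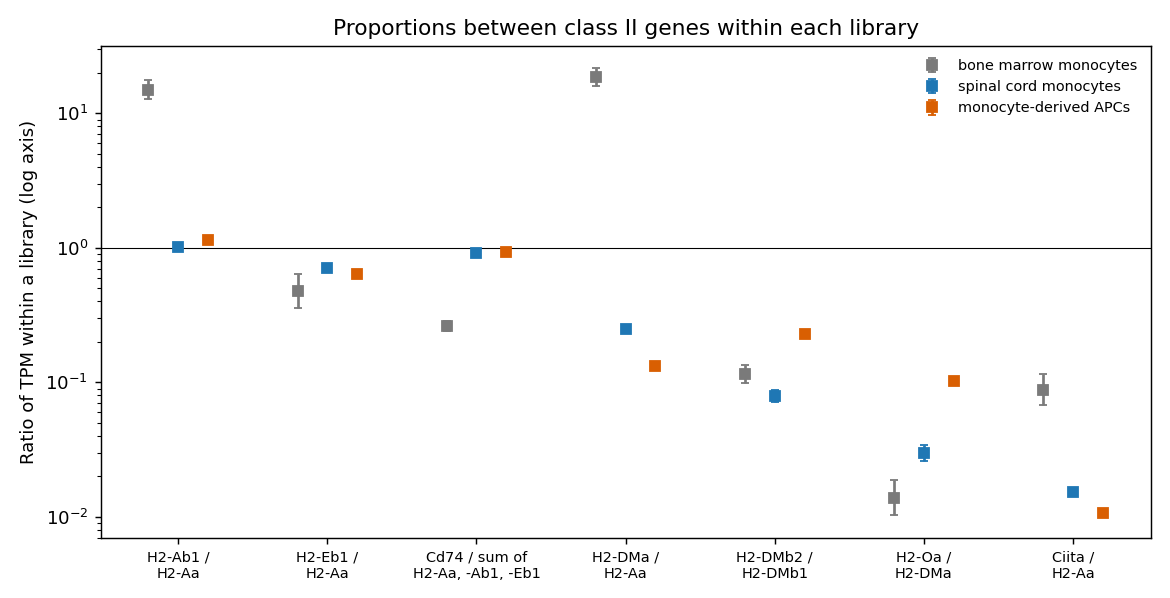
Ratio of TPM between members within each library (log axis; bars, 95% counting intervals) for BM monocytes (grey), SC monocytes (blue) and monocyte-derived APCs (orange). The ratios of H2-Ab1 and of H2-DMa to H2-Aa are 15.0 and 18.6 in BM monocytes, against at most 1.14 and 0.251 in the spinal cord libraries, and the ratio of H2-Oa to H2-DMa is highest in APCs, at 10.2%. The 15.0 rests in part on the short effective length of H2-Ab1 in BM monocytes.

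The order of the members by TPM differed between bone marrow and spinal cord. In BM monocytes it ran from H2-DMa through H2-Ab1, H2-DMb1, Cd74, H2-Aa, H2-DMb2, H2-Eb1, H2-Oa and Ciita to H2-Ob. The 95% intervals of H2-Aa and H2-DMb2 overlapped, as did those of Ciita and H2-Ob. In SC monocytes it was Cd74, H2-Ab1, H2-Aa, H2-Eb1, H2-DMa, H2-DMb1, Ciita, H2-DMb2, H2-Oa and H2-Ob, with overlap between H2-Ab1 and H2-Aa and between H2-DMb2 and H2-Oa. In APCs the order was the same except that H2-DMb2 and H2-Oa were above Ciita, and no neighbours overlapped.

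Other genes of the pathway were taken from 5 lists with 30 genes, 28 of them listed in all libraries and 26 active. Between the monocytes, 9 were called higher and 1 lower, where 24.4% of all active genes were called in either direction, and their median log2 fold change was 0.36. Of the 9, Prdm1 and Cd83 were active through SC monocytes alone, so they could be called higher but not lower. From SC monocytes to APCs 0 were called, where 3.63% of active genes were, with a median of -0.07.

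The genes of the complex on the X and Y boxes (Rfx5, Rfxap, Rfxank, Nfya, Nfyb, Nfyc and Creb1) had none called in either step. Their medians were -0.02 and -0.04, or 0.17 and -0.17 after dividing reads by effective length. Nfya, the highest in APCs, encodes a subunit of NF-Y and had 47.3 TPM in BM monocytes, 49.2 TPM in SC monocytes and 54.0 TPM in APCs.

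Among 10 regulators upstream of Ciita, 4 were called higher in SC than in BM monocytes and 1 lower, with a median of 0.18. Over all active genes 13.8% were called higher and 10.7% lower. The median of the step to APCs was -0.30, with 0 called, where 3.63% of all active genes were. Irf1, a factor that interferon gamma induces and that acts on a Ciita promoter, had 90.5 TPM in BM monocytes, 649.8 TPM in SC monocytes and 429 TPM in APCs, with log2 fold changes of 3.01 (98% bounds 2.94 to 3.07) and -0.85 (-0.89 to -0.82). Jak2, a kinase at the interferon gamma receptor, had 42.7, 139 and 112 TPM in the same order. Its log2 fold change between the monocytes was 1.97. Ifngr1, the ligand-binding chain of the receptor, was the gene called lower, with 363, 130 and 129 TPM and a log2 fold change of -1.20 (-1.26 to -1.15). Prdm1 encodes Blimp-1, a repressor of Ciita in plasma cells, and was called higher, at 2.57, 84.8 and 69.1 TPM, with 5.27 (5.06 to 5.49). Spi1, the macrophage factor PU.1, had 583, 448 and 446 TPM and was not called in either step.

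Of 7 genes of invariant chain cleavage and antigen processing, 6 were listed in all libraries and 4 were called higher in SC than in BM monocytes, with a median of 2.06. The share called higher over all active genes was 13.8%. From SC monocytes to APCs the median was 0.47 and 0 were called, where 3.63% of all active genes were. Ctss, the protease that makes the last cuts in the invariant chain, was the highest of the list, with 2097 TPM in BM monocytes, 6079 TPM in SC monocytes and 10133 TPM in APCs, and log2 fold changes of 1.85 (98% bounds 1.83 to 1.87) and 0.72 (0.71 to 0.73). Lgmn, an asparaginyl endopeptidase of lysosomes, had 66.7, 507 and 896 TPM, with 3.23 between the monocytes. The lysosomal proteases Ctsd and Ctsl were called at 2.28 each, Ctsd with 454, 1765 and 2837 TPM and Ctsl with 156, 586 and 808 TPM.

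In the list of class II turnover, 1 of 3 genes was called higher between the monocytes and 0 from SC monocytes to APCs, with medians of 0.65 and 0.02. Cd83, which opposes the removal of class II molecules from the cell surface by March1, had 0.345 TPM in BM monocytes (14 reads), 139 TPM in SC monocytes and 133 TPM in APCs, and a log2 fold change of 8.96 (98% bounds 8.16 to 9.93). March1, the ubiquitin ligase, had 141, 112 and 116 TPM and was not called.

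**Figure D5:**
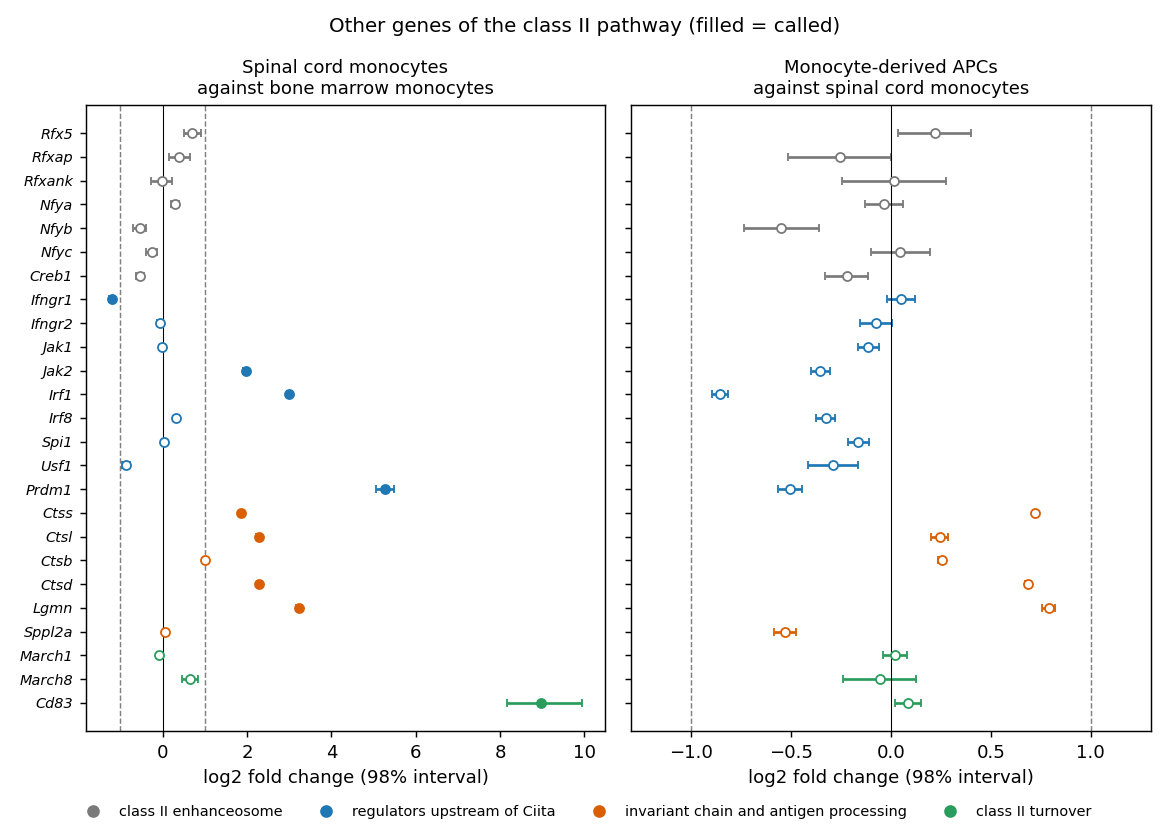
Log2 fold change (points, with 98% intervals) of active genes of 4 pathway lists for SC against BM monocytes (left) and monocyte-derived APCs against SC monocytes (right), filled where called, with dashed lines at a 2-fold change in each direction. On the left Prdm1 (5.27) and Cd83 (8.96) lie farthest out and Ifngr1 (-1.20) is the gene called lower, and on the right none is called.

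Further class II genes of the region were close to absent. H2-Eb2 had 0, 24 and 62 reads and H2-Ea-ps, the pseudogene of the I-E alpha chain, 0, 6 and 4 reads, in the BM monocyte, SC monocyte and APC libraries, where a floor of 3 reads is what a count of 0 allows. H2-Pb, a pseudogene listed for the monocytes alone, had 0 reads in both.

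Other cells that transcribe class II genes were looked for by marker lists. B cells also make H2-O. Their 7 markers summed to 8.69 TPM in BM monocytes, 4.26 TPM in SC monocytes and 4.10 TPM in APCs, with 0, 1 and 3 reads for Pax5. Cd79b made up 8.54, 2.55 and 3.26 TPM of these sums. Plasmacytoid dendritic cell markers summed to 0.206, 20.5 and 59.6 TPM in the same order, with 2 of 5 over 3 TPM in each spinal cord library, Siglech and Cox6a2, and Klk1 at 0 reads in all. Siglech is also a microglial gene. The 5 conventional dendritic cell markers summed to 40.8, 20.8 and 25.0 TPM, of which Flt3 made up 37.8 TPM in BM monocytes and 3.65 TPM in SC monocytes. Between the monocytes Flt3 was called lower (-3.04), and Batf3 (2.33) and Clec9a (4.43) were called higher. In the step to APCs Itgae was called higher, with 44 and 243 reads, and Flt3 (0.82), Clec9a (0.68), Xcr1 (1.62) and Batf3 (-0.69) were not called. Where called, Batf3 and Clec9a were active through SC monocytes alone and Itgae through APCs alone, so they could not be called lower.

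Microglia can express class II in inflammation, and their 5 markers summed to 12.8 TPM in BM monocytes, 85.0 TPM in SC monocytes and 223 TPM in APCs, all 5 being called higher in both steps. In BM monocytes, 1 of the 5 was over 3 TPM and Sall1 had 0 reads. The paper gated the spinal cord cells on high CD45 to leave out microglia. It also states that a few microglia may remain among the APCs. The 5 T cell markers summed to 0.347, 47.5 and 71.8 TPM, with all 5 called higher between the monocytes and 0 called in the step to APCs. In BM monocytes 0 of the 5 were over 3 TPM and 3 had 0 reads. The 4 monocyte markers summed to 9480, 7680 and 1844 TPM, with 3 called lower in APCs than in SC monocytes. Beside these marker counts, 13.8% of all active genes were called higher between the monocytes. In the step to APCs 1.93% were called higher and 1.7% lower. The part of any of these cells in the class II differences was not tested.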

How the data were processed

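Total RNA of 3 sorted populations was made into 1 pooled library each with an mRNA library kit (KAPA mRNA HyperPrep) and sequenced in paired reads of 50 bases. The authors estimated expression with Salmon 0.14.1 (named in the submitters' processing notes) on GENCODE vM22 and deposited TPM, estimated counts of reads and effective lengths per gene. The deposited TPM are normalized for effective length and library size, and the deposited estimated counts are not normalized. The labels name mm10 as the build.

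Comparisons covered the 22238 genes shared by all libraries (32115707, 26116588 and 28209327 rounded reads in BM monocytes, SC monocytes and APCs). They held 84.9%, 85.3% and 100.0% of deposited TPM, which was rescaled to the same sum. Symbols and positions came from GENCODE M21, with identifier and version equal for 99.03% of genes. After the study's use of GFold, which was computed anew, reads plus 1 were given gamma posteriors scaled by median-of-ratios size factors of 1.21, 0.864 and 0.963, and a gene was called where percentile 1 or 99 of the log2 ratio lay beyond a 2-fold change with rescaled TPM over 3 in at least 1 library. The procedure was run on simulated libraries with known changes and counting error alone. That run says nothing about variation between libraries of the same population. TPM were given 95% Wilson intervals.

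Named were all members, the called genes and the highest gene of each pathway list, and the 5 genes outside the lists nearest in both fold changes to Ciita and to the mean of H2-Aa, H2-Ab1, H2-Eb1 and Cd74. Markers were named where they bear on a result. The values of 2 genes counted in these lists are not reported here. Members and lists were chosen with earlier results of these data known.

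Alternatives were no TPM threshold or one of 4, scaling by TMM factors or by total reads, division of reads by effective length, a coefficient of variation of 0.2 or 0.4 between libraries, stricter percentile bounds, 0.5 in place of 1 added read, a plain 2-fold change, all genes of the monocyte libraries, and TPM unscaled or with 1 or 0.1 added. The sum of H2-DMb1 and H2-DMb2 was added after seeing the data. TMM factors came from edgeR 4.0.16 (R 4.3.3). All else was computed in Python 3.11.15 (scipy 1.17.1, numpy 2.4.6, pandas 2.3.3), and figures in matplotlib 3.10.9.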

Additional observations from a re-analysis of the deposited data

Results flagged for a closer look

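One gene of the antigen processing list lay outside the genes common to all libraries. Ifi30, which encodes the lysosomal thiol reductase GILT, was listed for both monocyte populations and not for APCs, so it entered no comparison above. Its TPM as deposited was 1161 in BM monocytes (21087 reads) and 1558 in SC monocytes (24926 reads). Over all genes of the monocyte libraries its log2 fold change was 0.48 (98% interval 0.45 to 0.51), under the 2-fold threshold. The rules for samples apart from their group and for effects that differ between groups need several libraries per population and could not be applied.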

How the results depend on the processing

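Of 254 log2 fold changes of members computed under an alternative, 211 kept their side of the threshold or moved within counting error, 19 were no longer called and 24 moved further, and 0 turned their direction. Alternatives of the TPM threshold, the spread, the bounds and the plain 2-fold change left the log2 fold change itself as it was. These could alter a call but could not turn a direction. Of 30 levels taken as TPM unscaled, 15 moved beyond their counting interval, and of 42 counts of calls 3 moved by over 1.5 times. With an assumed spread of a coefficient of variation of 0.2, the members called from SC monocytes to APCs were 3 in place of 7, and with 0.4 they were 0. Between the monocytes, pathway list genes called were 4 in place of 10 with 0.4, and H2-DMa and H2-DMb2 were no longer called with either spread, nor H2-DMb1 with 0.4. H2-DMb2 was also not called between the monocytes over all genes of the monocyte libraries, with 1.29 (98% interval 0.99 to 1.59), nor in the step to APCs when summed with H2-DMb1, with 0.76, and H2-Ob was not called in that step on reads divided by effective length, with 1.05. Scaling by total reads moved the median log2 fold change of all active genes between the monocytes by -0.18, with 1239 genes called higher and 1394 lower in place of 1386 and 1073. Division by effective length moved the median of the step to APCs by -0.12, with 193 higher and 442 lower in place of 188 and 165. Across the alternatives the log2 fold change of Ciita ranged from 4.09 to 5.55 between the monocytes and from 0.67 to 0.78 in the step to APCs. No paired analysis was possible because each population has 1 library with no replicate number, and for the same reason no library could be left out. H2-Ob in both monocyte populations, and H2-Eb1, H2-Oa and Ciita in BM monocytes, rest on 25 to 80 reads, which limits their precision.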

Other observations

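The genes outside the lists whose pair of log2 fold changes lay nearest to that of Ciita (5.41 between the monocytes and 0.73 from SC monocytes to APCs), among 9464 genes active in both steps, were Gbgt1, Tnfrsf4, Cd5, Gimap6 and Cd2, at distances of 0.07, 0.19, 0.22, 0.24 and 0.29 on the log2 scale. Gbgt1, a glycosyltransferase gene, had 0.739 TPM in BM monocytes, 13.8 TPM in SC monocytes and 22.5 TPM in APCs. Cd2 and Cd5, surface receptors of T cells, had 0.262, 8.86 and 16.7 TPM and 0.0518, 3.16 and 4.66 TPM in the same order. Tnfrsf4, which encodes OX40, had 0.121, 6.00 and 10.8 TPM.

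Nearest to the mean of H2-Aa, H2-Ab1, H2-Eb1 and Cd74 (7.31 and 1.32) were Cd200, Fblim1, Rhoc, Itgax and Tjp1, at distances of 0.04, 0.29, 0.30, 0.37 and 0.38. Itgax encodes CD11c, the antigen by which cells were removed from the bone marrow sort alone, and had 0.247 TPM in BM monocytes, 48.9 TPM in SC monocytes and 121 TPM in APCs. Cd200, an inhibitory ligand of myeloid cells, had 0.155, 7.08 and 12.6 TPM. Likeness was measured over 3 libraries.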
